A study of Mus musculus with 20 samples.

Results

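The genes described here encode the subunits of the mitochondrial respiratory chain and of ATP synthase that lie in the nuclear genome, together with relatives that share their names. They were taken as all genes with a single platform symbol that starts with Nduf, Uqcr or Atp5, that is Sdha, Sdhb, Sdhc or Sdhd, or that starts with Cox4, Cox5, Cox6, Cox7 or Cox8. The rule used names alone and no measured value, although it was chosen with earlier results of these data known. It gave 89 of the 22180 genes tested: 79 subunits, 8 assembly factors of complex I (the Ndufaf genes) and 2 pseudogenes. The subunits comprised 34 named as complex I, 4 of complex II, 7 of complex III, 17 of complex IV and 17 of ATP synthase. Ndufa4 is counted with complex I by its symbol, although its protein is now assigned to complex IV. All 89 were tested, and 8 of them had a mean log2 signal under 5, near the middle of all probe sets on an array.

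Complexes I and II pass electrons from NADH and succinate to ubiquinone, complex III passes them on to cytochrome c, and complex IV (cytochrome c oxidase) hands them to oxygen. Complexes I, III and IV pump protons as they do so, and ATP synthase uses the resulting gradient to make ATP. Several subunits of complex IV come as pairs of isoforms, one found in most tissues and one found mainly in heart and skeletal muscle, such as Cox8a with Cox8b and Cox6a1 with Cox6a2.

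Expression was measured on Affymetrix mouse gene arrays in total RNA of C2C12 cells, an established line of mouse myoblasts that can form muscle fibres or, under bone morphogenetic proteins, take on traits of bone cells. Cells received recombinant BMP4, a ligand of the BMP receptors, at 10, 100 or 300 ng/ml (2 arrays each), compound 942, 178 or 181 at 6.25, 12.5 or 25 µM (1 array each), methanol, the vehicle (3 arrays), or nothing (2 arrays). The series sets the 3 compounds beside BMP4 as activators of BMP signalling. All groups were the same line in medium with serum, and per the labels it was kept below confluence; the doses of 12.5 µM and 100 ng/ml are given by the titles and not by the treatment protocol. The values are log2 signals, so a change of 1 is a doubling, and "called" means an adjusted p under 0.05 in limma over all genes. The labels do not say whether repeated arrays stand for independent cultures, and the p-values below reflect only the scatter among these arrays, which may be technical.

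The labelled cell type was checked against markers. In methanol and untreated cells the myoblast genes Myod1 (means of 10.54 and 10.50) and Des (11.59 and 11.58) had high signals, and so did genes of muscle fibres such as Tnnc1 (11.25 and 11.46), although the cells were labelled myoblasts. The defining endothelial, macrophage and epithelial genes Pecam1, Ptprc and Epcam stayed at or below 5.02, 3.82 and 3.92 on all 20 arrays. Each is 1 gene of a list of 4, and the signals of the others are not given here. The arrays were split into 2 runs, inferred from the order of their title numbers, with the second run starting at untreated replicate 2. The labels do not call these runs batches. The second labelling method, Affyexpress, was used for 4 arrays of the first run (all of compound 942 and BMP4 300 ng/ml replicate 1). The model has a term for it that rests on the 2 arrays of BMP4 300 ng/ml, so the fitted mean at 300 ng/ml is replicate 2 alone. Those 2 arrays also differ in run, so in this term labelling and run cannot be told apart. It had a median of 0.17 over the 89 genes, against 0.0015 over all genes.

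The gene that changed most was Cox8b, the heart and muscle isoform of subunit 8 of cytochrome c oxidase, followed by Cox6a2. The promoters of Cox8b and of its ubiquitous partner Cox8a are printed first because this pair carries the largest contrast within one subunit. The promoter of Ndufs8, the complex I subunit with the lowest adjusted p, follows them. Each is the RefSeq window on GRCm38.p6 from 250 bases before to 50 bases after the annotated start, 5′ to 3′ on the minus strand that carries the gene, at chr7:140900397-140900696 for Cox8b, chr19:7217567-7217866 for Cox8a and chr19:3912725-3913024 for Ndufs8. Capitals mark the motif matches described after them.
Cox8b: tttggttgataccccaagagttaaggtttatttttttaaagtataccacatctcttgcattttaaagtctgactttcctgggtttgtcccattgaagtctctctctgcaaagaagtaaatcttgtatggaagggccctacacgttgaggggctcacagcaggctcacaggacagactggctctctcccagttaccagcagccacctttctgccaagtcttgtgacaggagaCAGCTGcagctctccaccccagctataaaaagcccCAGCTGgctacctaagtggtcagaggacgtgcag
Cox8a: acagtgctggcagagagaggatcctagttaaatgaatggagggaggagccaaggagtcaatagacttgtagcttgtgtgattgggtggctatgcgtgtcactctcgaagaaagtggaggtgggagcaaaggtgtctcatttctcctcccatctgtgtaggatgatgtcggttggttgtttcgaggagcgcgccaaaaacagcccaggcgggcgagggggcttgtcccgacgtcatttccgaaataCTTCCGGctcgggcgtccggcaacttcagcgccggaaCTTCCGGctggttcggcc
Ndufs8: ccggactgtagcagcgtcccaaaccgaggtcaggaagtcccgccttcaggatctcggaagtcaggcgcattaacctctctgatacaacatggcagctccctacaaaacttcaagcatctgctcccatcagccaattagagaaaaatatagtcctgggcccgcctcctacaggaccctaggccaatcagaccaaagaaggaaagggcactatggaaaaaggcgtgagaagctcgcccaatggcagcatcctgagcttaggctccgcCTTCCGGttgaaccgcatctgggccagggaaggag

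The letters searched on both strands were CAGCTG (an E-box bound by the myogenic factors), CCGGAAG (GABP, also called NRF2), TNAAGGTCA (oestrogen-related receptors), and the NRF1 and MEF2 motifs by name. CAGCTG reads the same on both strands. The Cox8b window held CAGCTG at -19 and at 17 from the start, and none of the other motifs. The Cox8a window held CCGGAAG, on the opposite strand, at -5 and 33, and the Ndufs8 window held it at 16. Promoter windows were found for 72 of the 89 genes (77 windows among 32851), and Cox6a2 had none in the table. GABP letters were present in 24.7% of the members' windows and 8.86% of all windows, and NRF1 letters in 26% and 6.23%. CAGCTG was present in 7.79% of the members' windows and 16.3% of all windows, TNAAGGTCA in 2.60% and 1.28%, and the MEF2 motif in 0% and 3.19%. A match describes the letters only, and binding was not measured here.

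Cox8b and Cox6a2, the muscle isoforms of 2 subunits of cytochrome c oxidase, fell with BMP4. Cox8b signals were 6.95 and 6.73 in untreated cells, 5.10 and 5.89 at 10 ng/ml, 4.53 and 4.09 at 100 ng/ml and 4.19 and 3.78 at 300 ng/ml. Every BMP4 array lay below both untreated arrays and below the 3 methanol arrays (7.26, 6.79 and 6.57), and the mean of each dose was lower than that of the dose before. The log2 change over the doses against untreated cells was -2.31 (SE 0.23, adjusted p = 7.40e-05 by limma), which is 4.96-fold lower. The signals at 100 and 300 ng/ml lay below all array medians (4.93 to 5.05), so the size of the fall there is uncertain. Cox8b was called in each of 20 fits that left out one array (-2.44 to -1.94), and in all 9 other settings tried on it.

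Cox6a2, the muscle isoform of subunit 6a, followed. It stood at 7.92 and 7.43 in untreated cells, 6.51 and 7.38 at 10 ng/ml, 6.22 and 6.22 at 100 ng/ml and 6.57 and 5.96 at 300 ng/ml. The 4 arrays at the higher doses lay below all 5 control arrays, while the second array at 10 ng/ml lay at the lowest of the methanol arrays (7.94, 7.65 and 7.38). Its mean change was -1.30 (SE 0.22, adjusted p = 0.00283 by limma), a 2.46-fold fall. Without untreated replicate 1 it was -1.06 with an adjusted p of 0.0686 by limma.

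**Figure D1:**
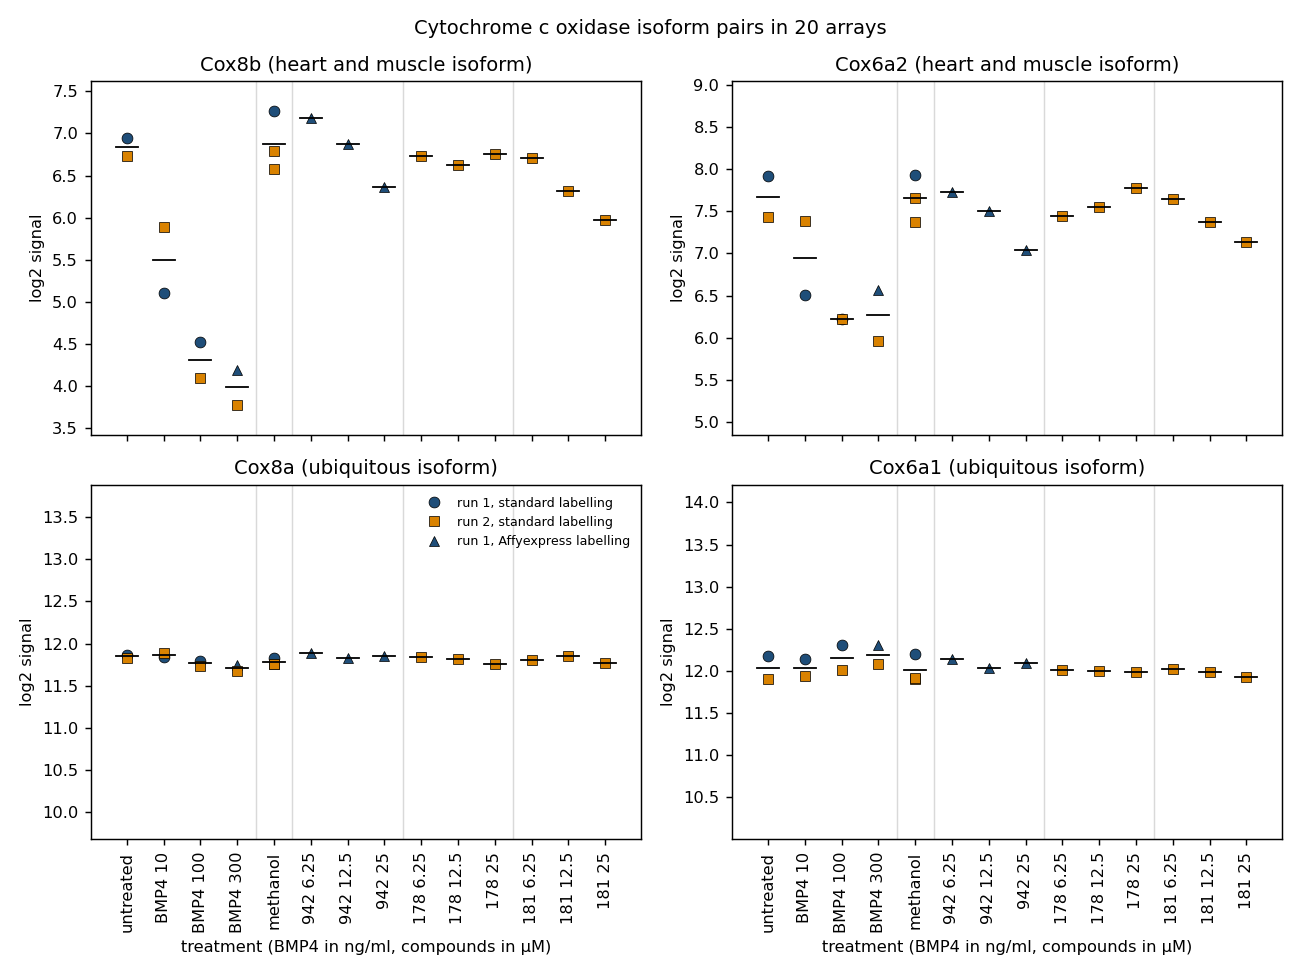
Log2 signal (y axis) of Cox8b, Cox6a2 and their ubiquitous partners Cox8a and Cox6a1 on 20 arrays, by treatment (x axis, BMP4 in ng/ml and compounds in µM). Points are arrays, coloured by run and shaped by labelling, bars are group means and all panels span the same height; Cox8b is at 4.53 or lower on the 4 arrays of 100 and 300 ng/ml, while Cox8a stays between 11.67 and 11.89 throughout.

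The ubiquitous partners had small estimates. The change over the doses was -0.08 for Cox8a (95% interval -0.22 to 0.06) and 0.06 for Cox6a1 (interval -0.20 to 0.31), and neither was called (adjusted p = 0.598 and 0.877 by limma). The signal of each isoform minus that of its partner on the same array was then set between the 6 BMP4 arrays and the 5 control arrays (untreated and methanol) for 5 isoform pairs. For the Cox8b pair BMP4 minus control of this difference was -2.24, with no overlap between the groups. For the Cox6a2 pair it was -1.30, again with no overlap, though the nearest arrays stood at -4.55 (BMP4) and -4.53 (control). Each had p = 0.00433 in a two-sided exact permutation test over 462 regroupings, and 0.00722 after Benjamini-Hochberg adjustment over the 5 pairs. The pairs were picked with these changes known, so the p-values describe the arrays at hand. The regroupings took no account of run, labelling or dose.

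None of the other tissue isoforms was called. Cox4i2, a lung isoform that responds to oxygen, had 6.48 and 6.38 at 10 ng/ml, 6.70 and 6.33 at 100 ng/ml and 6.47 and 6.35 at 300 ng/ml, against 6.40 and 6.22 in untreated cells. Its own change was 0.12 (SE 0.18, adjusted p = 0.803 by limma), while its partner Cox4i1 changed by -0.31 (adjusted p = 0.282 by limma). The difference between this isoform and its partner was 0.42 higher in BMP4 arrays than in control arrays, with no overlap (exact permutation p = 0.00433, adjusted 0.00722). The nearest arrays stood at -3.42 (BMP4) and -3.47 (control).

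Cox7a1, the muscle isoform of subunit 7a, had an estimate near 0. It had 6.17 and 6.33 at 10 ng/ml, 6.40 and 5.84 at 100 ng/ml and 6.24 and 6.19 at 300 ng/ml, against 6.11 and 6.22 in untreated cells, and changed by 0.02 (SE 0.16). Set against its partner Cox7a2 (change -0.0007) it differed by 0.10 between BMP4 and control arrays (exact permutation p = 0.225, adjusted 0.281). The third member of that family, Cox7a2l, which helps assemble supercomplexes, changed by -0.24 (SE 0.16, adjusted p = 0.482 by limma). Ndufa4l2, induced by low oxygen, and Ndufa4 differed by 0.14 between these groups of arrays (exact permutation p = 0.409). Cox7b2 and Cox8c, isoforms of testis, and Cox6b2 had mean signals under 5.

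Over the doses, 4 of the 89 genes fell and 0 rose with BMP4. In this fit, which has no term for the run, the members' share was 4.49% and the background was 8.81% of all genes called (4.20% higher and 4.60% lower). With genes of a mean signal under 5 left out, the share was 6.17% (5 of 81 members), against 17% of the 12615 genes kept. Unless said otherwise, the shares and medians of all genes given here include these dim genes. With the run as a block 10 members were called lower and 1, Ndufv3, higher, a share of 12.4%, against 13.5% of all genes. At an unadjusted p under 0.05 there were 16 lower and 2 higher without the block, against 10.1% of all genes lower and 9.76% higher. Besides Cox8b and Cox6a2 the called genes were Ndufs8 and Ndufb8. Without untreated replicate 1 only Cox8b was called, and without BMP4 300 ng/ml replicate 2 Cox8b and Cox6a2 were. The second of these fits leaves out both arrays of that dose, since the other cannot be told apart from its labelling, so the mean is then over 10 and 100 ng/ml. A negative change was seen in 67 of 89 (75.3%), against 53.0% of all genes, and the median change was -0.10, against -0.015 over all genes. For 87 of the 89 genes, all but Cox8b and Cox6a2, the change was under 0.5 in either direction, and each of these 95% intervals lay within 1 of no change. In whole-culture RNA, fewer cells of a type and less RNA per cell cannot be told apart.

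**Figure D2:**
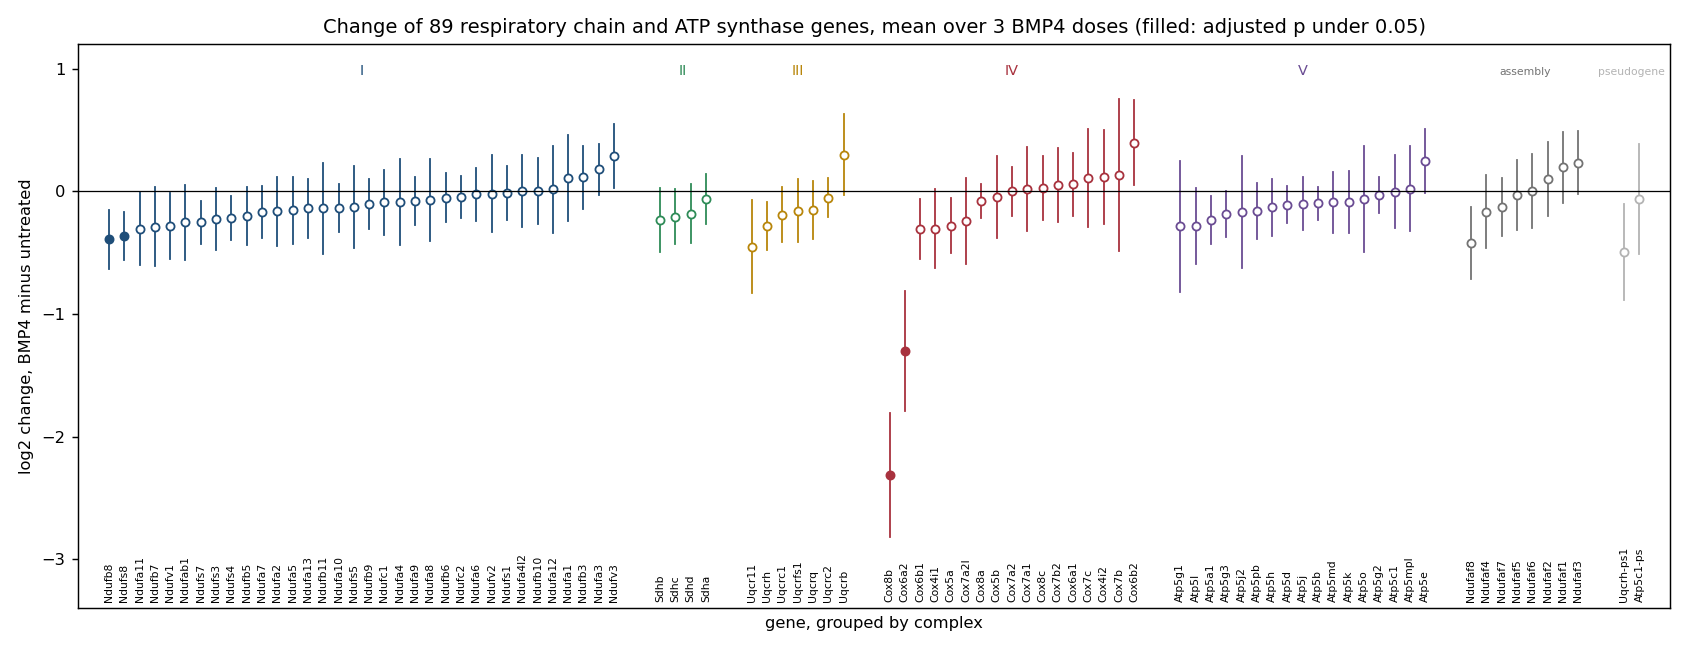
Log2 change of each of the 89 genes (y axis, BMP4 mean over 3 doses minus untreated, with 95% intervals), ordered within each complex (x axis). Filled points passed an adjusted p under 0.05: Ndufb8, Ndufs8, Cox8b and Cox6a2; most open points lie slightly below 0.

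In complex I, 27 of 34 genes were lower, 2 were called and the median was -0.12. Ndufs8, a core subunit that carries iron-sulfur clusters, had 10.08 and 10.20 in untreated cells, 9.99 and 10.17 at 10 ng/ml, 9.75 and 9.65 at 100 ng/ml and 9.65 and 9.55 at 300 ng/ml. The arrays at 100 and 300 ng/ml lay below all control arrays, while those at 10 ng/ml overlapped them. Its change was -0.36 (SE 0.089, adjusted p = 0.0235 by limma), 1.29-fold lower. Ndufb8, an accessory subunit of the membrane arm, had 6.64 and 6.71 in untreated cells, 6.46 and 6.57 at 10 ng/ml, 6.30 and 6.19 at 100 ng/ml and 6.37 and 6.08 at 300 ng/ml. Its change was -0.39 (SE 0.11, adjusted p = 0.0462 by limma), 1.31-fold lower.

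Both calls depended on single arrays and on the settings. Ndufs8 was called in 17 of 20 fits without one array, and not without untreated replicate 1 (adjusted p = 0.0773 by limma), untreated replicate 2 (0.187) or BMP4 300 ng/ml replicate 2 (0.160). Ndufb8 was called in 11 of the 20, with adjusted p-values up to 0.230 by limma. With methanol as the control the changes were -0.22 for Ndufs8 (adjusted p = 0.104 by limma) and -0.29 for Ndufb8 (0.0879), and with 1 mean shared by the doses the adjusted p-values were 0.122 and 0.0547. Ndufs8 was also not called without a variance trend (0.0816), nor Ndufb8 with arrays centred on their median (0.0649) or without a labelling term (0.0691).

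The largest positive change of the complex was that of Ndufv3, an accessory subunit of the NADH-binding arm, which was 0.29 (SE 0.12, adjusted p = 0.188 by limma). All 6 of its BMP4 arrays (7.39 to 7.72) lay above all 5 control arrays (7.16 to 7.36). The change of Ndufb11, an accessory subunit of the membrane arm, averaged -0.14 (adjusted p = 0.757 by limma).

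Complex II is the succinate dehydrogenase that also serves the citric acid cycle, and all 4 of its genes were lower without any being called. The flavoprotein gene Sdha changed by -0.06 (SE 0.093), the iron-sulfur gene Sdhb by -0.23 (SE 0.12), and the membrane anchors Sdhc and Sdhd by -0.21 (SE 0.10) and -0.18 (SE 0.11). The lowest adjusted p of the complex was 0.297 by limma, for Sdhc. In Sdhc the arrays at 100 ng/ml (9.48 and 9.45) and 300 ng/ml (9.37 and 9.38) all lay below the untreated (9.59 and 9.82) and methanol arrays (9.63, 9.63 and 9.63).

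In complex III, 6 of 7 genes were lower, none was called and the median was -0.16. Uqcrh, the hinge protein that binds cytochrome c1, had 8.53 and 8.57 in untreated cells, 8.49 and 8.62 at 10 ng/ml, 8.20 and 8.11 at 100 ng/ml and 8.20 and 8.09 at 300 ng/ml. The 4 arrays at the higher doses thus lay apart from the rest, and the mean change of -0.28 (SE 0.09, adjusted p = 0.0811 by limma) missed the threshold. The outermost members were Uqcr11, a small subunit (-0.45, SE 0.17), and Uqcrb, the ubiquinone-binding protein (0.30, SE 0.15), with adjusted p-values of 0.151 and 0.311 by limma.

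In complex IV, 9 of 17 genes were lower and the median was -0.0007, with Cox8b and Cox6a2 the only calls. Cox5a, a subunit on the matrix side, had 7.81 and 7.59 at 100 ng/ml and 7.91 and 7.74 at 300 ng/ml, against 8.07 and 8.18 in untreated cells. Its mean change was -0.28 (SE 0.10, adjusted p = 0.132 by limma). The estimate for Cox6b1, a subunit at the dimer interface, was -0.31 (SE 0.11, adjusted p = 0.128 by limma). Its testis form Cox6b2 had the largest positive change of the complex, 0.40 (SE 0.16, adjusted p = 0.175 by limma), at signals of 4.85 to 5.21 with BMP4 and 4.59 and 4.70 in untreated cells. Cox7b, a further small subunit, changed by 0.13 (SE 0.28), and its arrays ran from 10.60 to 11.59, with untreated cells at 10.60 in the first run and 11.54 in the second. A second, dimmer probe set of Cox7b changed by -0.25 (SE 0.15).

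In ATP synthase, 15 of 17 genes were lower, none was called and the median was -0.10. Atp5pb, a subunit of the peripheral stalk, had 8.90 and 9.24 in untreated cells, 9.22 and 9.34 at 10 ng/ml, 8.88 and 8.76 at 100 ng/ml and 8.89 and 8.62 at 300 ng/ml. The 3 genes for the c ring, which encode the same mature protein, gave changes of -0.28 for Atp5g1 (SE 0.24), -0.03 for Atp5g2 (SE 0.067) and -0.19 for Atp5g3 (SE 0.084). None of these was called (adjusted p = 0.621, 0.894 and 0.245 by limma). The largest positive change was that of Atp5e, the epsilon subunit of the central stalk, at 0.24 (SE 0.12, adjusted p = 0.291 by limma). A second, dimmer probe set of Atp5e changed by 0.010 (SE 0.14). In the 8 assembly factors the median was -0.015 and 4 were lower, and Ndufaf8 came nearest to the threshold (-0.42, SE 0.13, adjusted p = 0.0780 by limma).

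The changes were larger at the higher doses. At 10 ng/ml only Cox8b was called (-1.35, SE 0.27, adjusted p = 0.0401 by limma; background 1.10%), and 33 of 89 genes were lower with a median of 0.025, against -0.028 for all genes. The Cox8b call at this dose was lost without untreated replicate 1, untreated replicate 2, BMP4 10 ng/ml replicate 1 or methanol replicate 2 (adjusted p = 0.299, 0.125, 0.296 and 0.0727 by limma). At 100 ng/ml 5 genes fell and 0 rose (background 9.15%, 4.40% higher and 4.75% lower). With the run as a block 17 members were called at this dose (16 lower), a share of 19.1%, against 13.9% of all genes. In the fit without it the log2 changes were -2.53 for Cox8b, -1.46 for Cox6a2, -0.44 for Ndufs8, -0.43 for Cox5a and -0.39 for Uqcrh. At 300 ng/ml 4 fell and 0 rose (background 7.98%, 3.70% higher and 4.28% lower). These were Cox8b at -3.06, Cox6a2 at -1.72, Ndufb8 at -0.60 and Ndufs8 at -0.59. With the run as a block 11 were called at this dose, a share of 12.4%, against 12.1% of all genes.

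Over the rising doses of 10, 100 and 300 ng/ml the median change of the 89 genes was 0.025, -0.15 and -0.22, while the medians of all genes were -0.028, -0.0016 and -0.0055. By complex, at 300 ng/ml, complex III had -0.34, complex II -0.31, complex I -0.23, ATP synthase -0.20 and complex IV -0.016. These values are those of replicate 2, and the order was not tested. Measured from the 20-array means, the complex III median was -0.052 on replicate 1 and -0.31 on replicate 2, and that of ATP synthase was -0.0042 and -0.17. Within run 1 the median of the 89 genes was -0.084 at 300 ng/ml and -0.10 at 100 ng/ml. At 100 ng/ml Cox5a, Ndufs8 and Uqcrh were no longer called without untreated replicate 1, untreated replicate 2 or BMP4 100 ng/ml replicate 2. Without untreated replicate 1 Cox6a2 was not called either, with a change of -1.21. Leaving out methanol replicate 3 gave 3 calls at this dose.

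**Figure D3:**
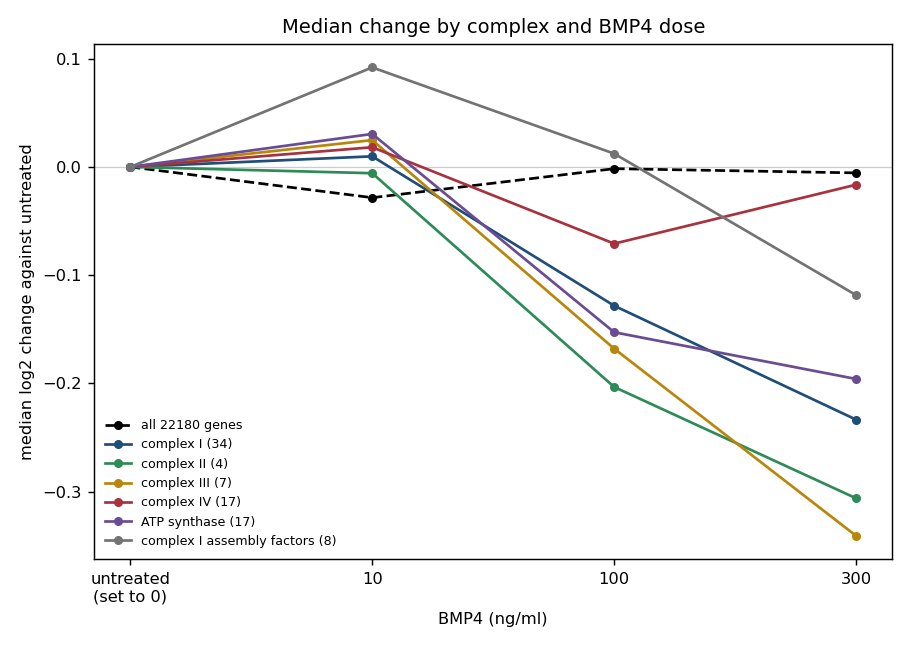
Median log2 change against untreated cells (y axis) by BMP4 dose (x axis, ng/ml) for each complex, with the number of genes in brackets, and for all 22180 genes (dashed). The 5 complexes lie between -0.0058 and 0.031 at 10 ng/ml; at 300 ng/ml complexes I to III and ATP synthase lie between -0.34 and -0.20 while complex IV is at -0.016.

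The slope on the doubling of BMP4 dose, fitted over 10 to 300 ng/ml, was negative for 73 of 89 genes (82.0%), against 44.8% of all genes, with a median of -0.053 per doubling against 0.0066. Of these, 6 were called lower and 0 higher (background 5.40%, 2.32% higher and 3.08% lower), and 13 with the run as a block, a share of 14.6% against 9.97% of all genes. Cox8b had a slope of -0.35 (SE 0.064, adjusted p = 0.00691 by limma). The others were Ndufb11 (-0.19), Atp5pb (-0.13), Ndufs8 (-0.11), Uqcrh (-0.099) and Atp5g3 (-0.096). None of the 89 slopes was called if BMP4 10 ng/ml replicate 2 was left out, only that of Cox8b if BMP4 300 ng/ml replicate 2 was, and 3 if methanol replicate 3 was.

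The slope of Ndufb11 rested on 1 array. Its signals were 4.95 and 5.45 in untreated cells, 5.50 and 5.47 at 10 ng/ml, 5.28 and 5.18 at 100 ng/ml and 5.23 and 4.47 at 300 ng/ml, and the array at 4.47 alone sets the fitted value at 300 ng/ml. Without a labelling term its slope was -0.12 (adjusted p = 0.164 by limma), and with BMP4 300 ng/ml replicate 2 left out it was -0.077 (adjusted p = 0.70). That fit, also used for the slopes counted above, leaves out both arrays of the dose. Its slopes thus cover 10 and 100 ng/ml only.

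The direction could be followed in single arrays. For 26 of 89 genes (29.2%), all 4 arrays at 100 and 300 ng/ml lay below all 5 control arrays, against 11% of all genes. They comprised 9 genes of complex I, 1 of complex II, 4 of complex III, 4 of complex IV, 5 of ATP synthase and 3 assembly factors. Only 3 genes, Cox6b2, Ndufaf3 and Ndufv3, had all 4 arrays above the controls (10.4% of all genes). With the 10 ng/ml arrays included, Atp5d (the delta subunit of the ATP synthase stalk) and Cox8b lay wholly below the controls (4.59% of all genes) and Ndufv3 wholly above (3.19%). Atp5d had 11.03 to 11.13 on the BMP4 arrays, against 11.15 to 11.23 on the control arrays. Its change over the doses was -0.11 and was not called. A second, dimmer probe set of Atp5d changed by -0.16 (SE 0.20).

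Within the 2 runs, each with its own untreated array, 55 of 89 genes (61.8%) were lower in both at 100 ng/ml, against 32.1% of all genes, and 12 (13.5%) were higher in both, against 32.0%. At 300 ng/ml 51 (57.3%) were lower in both, against 33.1%. At 10 ng/ml 22 (24.7%) were lower in both, against 29.5%. In run 2 the medians were -0.18 at 100 ng/ml and -0.23 at 300 ng/ml. The run 1 array at 300 ng/ml was labelled by Affyexpress and its control was not. The change of Cox8b at 100 ng/ml was -2.42 in the first run and -2.64 in the second.

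**Figure D4:**
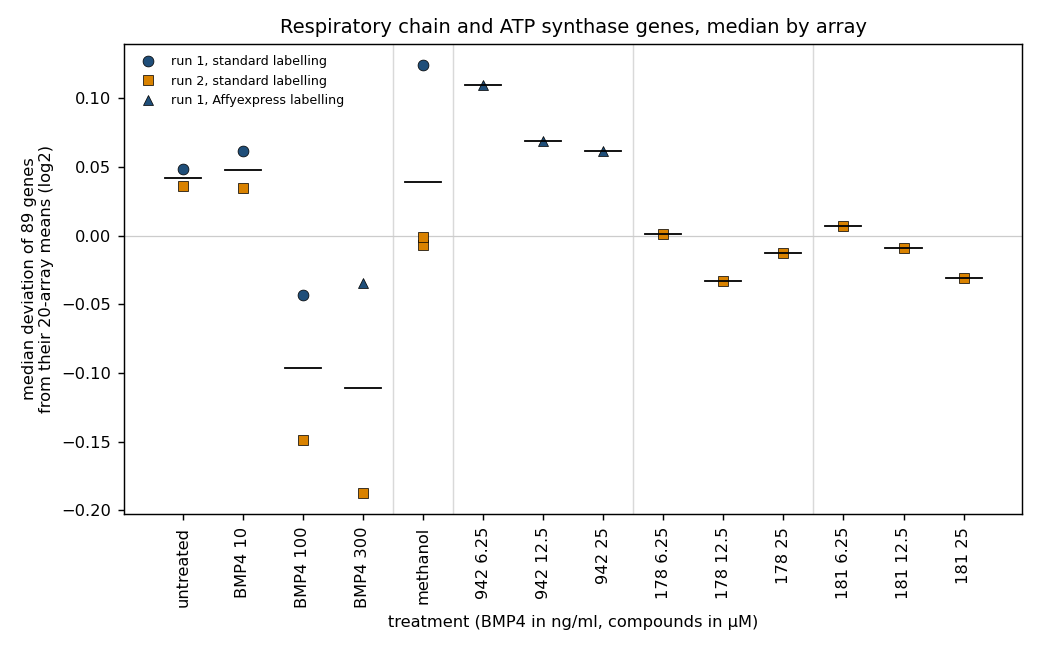
Median deviation of the 89 genes from their own 20-array means (y axis, log2) on each array, by treatment (x axis, BMP4 in ng/ml, compounds in µM), with group means as bars. The 4 arrays at 100 and 300 ng/ml lie between -0.19 and -0.034; the first methanol array stands at 0.12 and the other methanol arrays at -0.0066 and -0.0012.

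Markers of muscle fibres moved with these changes. All 11 of 11 such genes fell with BMP4 (median -2.88), among them Myog, which drives fibre formation (-2.88, SE 0.28, adjusted p = 5.45e-05 by limma). The mean signal of the list was 8.91 and 9.41 at 10 ng/ml, 5.96 and 6.49 at 100 ng/ml and 5.91 and 5.74 at 300 ng/ml, against 9.66 to 9.94 in untreated and 9.50 to 9.99 in methanol cells. Of the myoblast genes 3 of 5 fell, and of the osteoblast genes 4 of 5 measured rose, with Sp7 highest at 3.97. Over all genes 4.20% were called higher and 4.60% lower. None of the endothelial, macrophage or epithelial markers was called, and 1 of 5 adipocyte genes, Fabp4, rose. The part of the muscle markers in the falls of Cox8b, Cox6a2 and the other members was not tested.

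Genes outside the list that work with the chain were also examined. Of 35 measured electron carriers and assembly factors 2 rose and 1, Cyc1, fell, against 4.20% of all genes called higher and 4.60% lower. Cyc1, the cytochrome c1 of complex III, had a log2 change of -0.44 (SE 0.077, adjusted p = 0.00327 by limma), with a slope of -0.15 per doubling (adjusted p = 0.00156). Lyrm7, an assembly factor of complex III, rose by 0.73 (adjusted p = 0.00477 by limma), and Etfa, which brings electrons from fat oxidation, by 0.43 (adjusted p = 0.0207). Cyc1 thus had a lower adjusted p than any complex III gene of the list.

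Among 19 regulators of mitochondrial genes 0 rose and 2 fell, against 4.60% of all genes called lower. Both were coactivators of mitochondrial biogenesis: Ppargc1b fell by 0.72 (adjusted p = 0.00912 by limma) and Ppargc1a by 0.52 (adjusted p = 0.0321). Tfam, which packs mitochondrial DNA and starts its transcription, changed by 0.0092 (adjusted p = 0.984 by limma). Ppargc1a signals were low, 4.03 to 4.44 with BMP4 against a mean of 4.65 in untreated cells.

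In the citric acid cycle and pyruvate list 3 of 20 measured genes rose and 1 fell, against 4.20% and 4.60% of all genes. Pdk1 and Pdk4, kinases that switch off pyruvate dehydrogenase, rose by 0.69 and 0.55 (adjusted p = 0.00316 and 0.0319 by limma), and so did Suclg2 by 0.39 (adjusted p = 0.0268). Cs, citrate synthase, fell by 0.29 (adjusted p = 0.0286 by limma). None of 10 measured carriers and channels was called, with 2 at an unadjusted p under 0.05. Of 71 mitochondrial ribosomal proteins 0 rose and 5 fell, against 4.60% of all genes called lower. The largest falls were those of Mrpl38 (-0.56, adjusted p = 0.00278 by limma), Mrps18b (-0.46) and Mrps27 (-0.41). That list had 58 lower genes and a median of -0.14, beside 67 of 89 and -0.10 for the respiratory chain list.

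None of the 89 genes was called for any compound. The background was 0% of all genes for 942, 0% for 178 and 0.00451% (1 gene) for 181, and 1, 0 and 1 members had an unadjusted p under 0.05 by limma, against 1.5%, 2.47% and 3.68% of all genes. The medians over the doses were -0.084 for 942, -0.046 for 178 and -0.033 for 181, against medians of all genes of -0.0097, -0.0024 and -0.0080. The median for 942 was 0.050 without a labelling term and 0.026 with 1 mean shared by its doses, so its direction depends on the fit. Per run, against the methanol arrays of the same run alone, they were -0.044, -0.005 and 0.013. On the 3 methanol arrays the median deviation of the 89 genes had an SD of 0.074. The comparisons with methanol share its 3 arrays.

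Cox8b had the lowest p of the 89 genes under 181. Cox8b had 7.26, 6.79 and 6.57 with methanol, and 6.71, 6.31 and 5.97 with 181 at 6.25, 12.5 and 25 µM, so that the arrays at 12.5 and 25 µM lay below every control array. Its change over the doses was -0.54 (95% interval -1.03 to -0.06, unadjusted p = 0.0311, adjusted p = 1 by limma). At 25 µM it was -0.90 (interval -1.59 to -0.22, adjusted p = 0.588 by limma). Within the second run, against its 2 methanol arrays, the mean difference was -0.35. Cox6a2 had 7.64, 7.38 and 7.14 with 181 at the rising doses, against 7.94, 7.65 and 7.38 with methanol, a change of -0.27 (interval -0.74 to 0.20). The members with the next lowest p for 181 were Atp5l, a small subunit of ATP synthase (-0.27), and Ndufaf1, an assembly factor (-0.25).

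With compound 942 both signals were also lower at each higher dose. Cox8b had 7.18, 6.88 and 6.36 at 6.25, 12.5 and 25 µM, and Cox6a2 had 7.73, 7.51 and 7.04. The fitted changes were -0.48 for Cox8b (interval -1.45 to 0.49) and -0.84 for Cox6a2 (interval -1.78 to 0.09). Part of each is the labelling term, which also holds the difference between the runs. On the signals as deposited, the 942 mean minus the methanol mean was -0.067 for Cox8b and -0.23 for Cox6a2, and the labelling terms were 0.41 and 0.61.

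The lowest p for 942 was that of Ndufb11, at -0.84 (interval -1.56 to -0.13, unadjusted p = 0.0245, adjusted p = 1 by limma). Its signals as deposited averaged 5.20 with 942 and 5.28 with methanol, and its labelling term, 0.76, was the highest of the 89 genes. Ndufaf4, an assembly factor, followed with 0.53 (interval -0.04 to 1.10), while the signals as deposited differed by 0.081 and its labelling term was -0.45. Within the first run, against its single methanol array, Cox8b differed by -0.45 and Cox6a2 by -0.51.

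With compound 178 the signals did not step down with dose. Cox8b had 6.73, 6.62 and 6.76 and Cox6a2 had 7.44, 7.55 and 7.78 at 6.25, 12.5 and 25 µM, all within the range of the 5 control arrays. The changes over the doses were -0.17 (interval -0.66 to 0.31) and -0.07 (interval -0.53 to 0.40). The members with the lowest p for 178 were Atp5e (-0.20), Ndufaf7, a methyltransferase that assembles complex I (-0.18), and Ndufa1, a small membrane subunit (-0.25), with adjusted p = 1 each by limma.

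**Figure D5:**
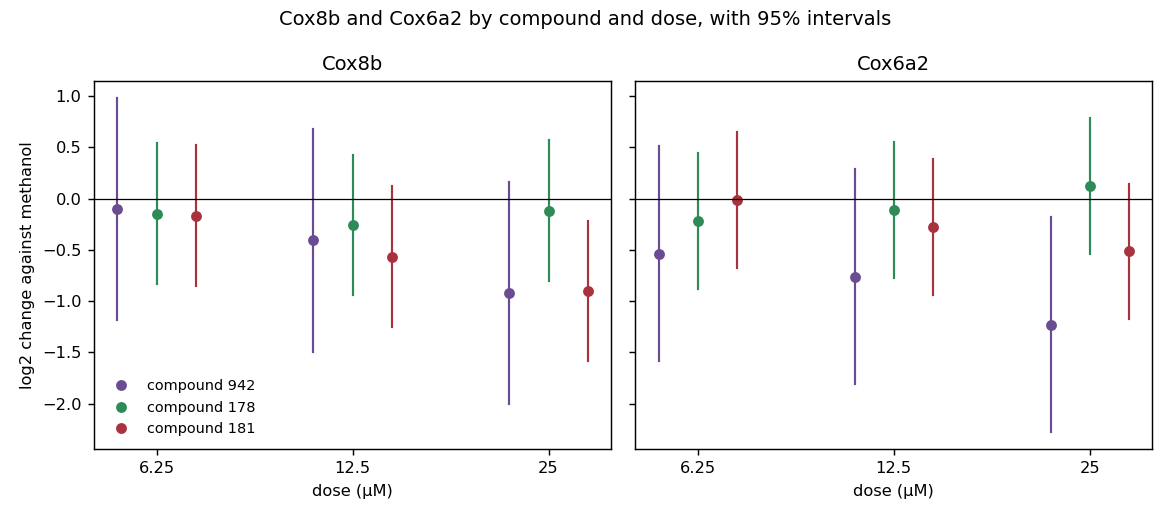
Log2 change against methanol (y axis) of Cox8b and Cox6a2 by dose (x axis, µM) for compounds 942, 178 and 181, with 95% intervals from the fit over all arrays. Cox8b lies at -0.92, -0.12 and -0.90 at 25 µM, and no point passed an adjusted p under 0.05.

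Members lower at each step of dose numbered 36 of 89 for 181 (19.4% of all genes), 23 for 942 (21.1% of all genes) and 18 for 178 (16.4% of all genes). Cox8b and Cox6a2 were among them for 181 and 942 and not for 178. Each dose was a single array and the title numbers rise with dose within a compound, so dose and order cannot be told apart. The mean signal of the 11 muscle fibre markers was 9.57, 9.35 and 8.92 with 181 at the rising doses, 9.74, 9.60 and 9.01 with 942, and 9.73, 9.76 and 9.78 with 178. All 11 were lower on average with 181 (median -0.45), 8 were with 942 (median -0.60) and 5 with 178 (median 0.020), and none was called. Their part in the values of Cox8b and Cox6a2 was not tested.

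The compounds were also set against each other in 12 comparisons, over the doses and at each matched dose. No member was called in any of them, and the lowest adjusted p over genes and comparisons was 1 by limma. At 25 µM Cox8b was lower with 181 than with 178 by a difference of -0.78 (interval -1.62 to 0.06), and Cox6a2 by -0.64 (interval -1.46 to 0.17). With 942 minus 178 at 25 µM the differences were -0.80 for Cox8b (interval -1.99 to 0.38) and -1.36 for Cox6a2 (interval -2.51 to -0.21, unadjusted p = 0.0245). With 942 minus 181 at that dose they were -0.021 (interval -1.21 to 1.17) and -0.71 (interval -1.86 to 0.44). Compound 942 shares neither run nor labelling with the others. Outside these, 181 minus 178 at 25 µM gave 0.74 for Cox4i2 (interval 0.10 to 1.38, unadjusted p = 0.0269).

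No member was called for methanol minus untreated (background 0%; 634 of all genes, 2.86%, had an unadjusted p under 0.05 by limma). The median of methanol minus untreated was -0.0090. The 2 members with an unadjusted p under 0.05 were Cox7c, a small subunit of complex IV (0.54), and the pseudogene Uqcrh-ps1 (-0.56). Cox8b and Cox6a2 changed by 0.036 (interval -0.51 to 0.58) and -0.021 (interval -0.54 to 0.50).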

How the data were processed

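The deposited values were log2 signals of 41345 probe sets on 20 arrays. Per the submitters' processing notes the authors made them with RMA in Partek 6.5, a method that subtracts background, equalises the arrays' distributions and combines probes. Per the labels' protocols 3 samples were labelled by both methods for batch correction; whether it was applied is not stated, nor is the time between treatment and extraction. RMA evens out array distributions, so a shift of the whole transcriptome would not show. Array medians were 4.93 to 5.05. Precision is limited by the number of arrays and, for 942, by the labelling term (median SE over the members 0.23 for 942, against 0.11 for 178 and for 181).

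Of the probe sets, 23521 had 1 symbol, 1814 several and 16010 none in the platform annotation. Probe sets with several symbols were not used for names. Where a gene had more than 1 probe set, the brightest on average was kept; 9 members had 2, of which 6 pairs had the same sign with BMP4.

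limma 3.58.1 (R 4.3.3) fitted 1 mean per treatment and dose and a labelling term to all 20 arrays, with a variance trend (5 residual degrees of freedom, median prior 6.73). Compound doses, with 1 array each, borrow their spread from the repeated groups. Benjamini-Hochberg adjustment ran over 22180 genes, and over genes and 12 comparisons for pairs of compounds. Contrasts were BMP4 minus untreated, each compound minus methanol, differences between compounds, slopes on log2 dose, and methanol minus untreated. The procedure was tested on simulated data that held no run or labelling effect.

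Members and lists were chosen with earlier results of these data known. Genes were named by rule: up to 20 called members, the outermost members of each complex, tissue isoforms with their partners and the Sdh genes, the 3 lowest p per compound, called slopes, and up to 3 called genes each way per other list. Genes near the threshold, those in small counts (such as Atp5d, Ndufaf3 and Cox7c) and Cox6b1, Cox7a2l and Atp5pb arrays were picked after their values were seen. Alternatives were no labelling term, a run block, averaged probe sets, a filter on low signals, median centring, no trend, a common mean for doses, other controls, and leaving out each array; the isoform tests and within-run values were added after seeing the data. Promoters came from RefSeq (GRCm38.p6).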

Additional observations from a re-analysis of the deposited data

How the results depend on the processing

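Shares in brackets are those of all genes called in the same setting. For the mean over BMP4 doses the 4 calls (8.81%) became 11 with the run of title numbers as a block (13.5%), 2 with a common mean for the doses (8.00%) and 13 with untreated and methanol together as the control (14.1%), and lay between 1 and 4 when single arrays were left out (median change -0.128 to -0.062). At 10 ng/ml the 1 call became 0 without a variance trend (0.631%), and 0 to 1 without single arrays (median 0.0032 to 0.030). At 100 ng/ml the 5 calls (9.15%) became 17 with the run block (13.9%), 8 with dim genes left out (17.8%), 3 with median centring (7.88%), 2 without a trend (7.73%), 9 with methanol as the control (10.9%) and 14 with both controls (13%), and 2 to 6 without single arrays (median -0.171 to -0.093). At 300 ng/ml the 4 calls (7.98%) became 9 without a labelling term (13.1%), 11 with the run block (12.1%), 8 with methanol (9.23%), 10 with both controls (10.2%), and 3 to 5 without single arrays (median -0.226 to -0.212; -0.084 within run 1). The 6 called slopes (5.40%) became 13 with the run block (9.97%) and 2 without a trend (4.31%), and 0 to 6 without single arrays (median -0.055 to -0.046). The run block adds 1 term for the run, shared by all groups. The untreated, 10 and 100 ng/ml groups each have 1 array per run, so the changes at these doses keep their size. For 942 the median of -0.084 turned to 0.050 without a labelling term and 0.026 with a common mean, and was -0.118 to -0.059 without single arrays. The other compounds and methanol kept 0 calls in these settings, with medians of -0.068 to -0.005 for 178, -0.058 to 0.013 for 181, -0.011 to 0.019 for 181 minus 178 and -0.033 to 0.018 for methanol without single arrays. The cause of these moves was not tested. Without BMP4 300 ng/ml replicate 2 that dose, and without either of its arrays 942, could not be estimated with a labelling term. With 2 to 3 control arrays and 1 array per compound dose, changes smaller than the width of the intervals given may be missed.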
